A study of Mus musculus with 36 samples.

Results

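The Reg family of the mouse pancreas was followed through 2 histone marks in single mice, with and without the SET domain of EZH2 in acinar cells. The 7 members were taken by name: Reg1, Reg2, Reg3a, Reg3b, Reg3d and Reg3g, which lie in 1 cluster on chromosome 6, and Reg4 on chromosome 3. They are 7 of 22379 genes with an Entrez identifier in the mm10 annotation. Reg genes encode small secreted proteins with a C-type lectin fold. Acinar cells, which make the digestive enzymes, release several of them, and pancreatic injury and inflammation are known to raise their transcripts through IL-6, IL-22 and STAT3 signalling. H3K4me3 (K4me3) is a mark of active promoters and H3K27me3 (K27me3), written by EZH2 and its partners, is a mark of repressed chromatin.

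ChIP-Seq, in which an antibody recovers the DNA wrapped around a modified histone, was performed on chromatin of whole pancreata from mice that were 2 to 4 months old at tamoxifen gavage, 22 days after that treatment. Both genotypes described here had 3 mice, and each mouse gave 1 peak list per mark, 12 lists in all. The control mice are labelled Wildtype (WT), and the study's methods allow C57BL/6 mice or carriers of the Mist1creERT allele alone as controls. EZ mice were Mist1creERT/+ with EZH2 [delta]SET, a deletion that takes the catalytic SET domain from Ezh2. Both groups received tamoxifen. Mist1creERT restricts recombination to acinar cells, while the chromatin came from all cells of the organ, so fewer cells with a mark and less of the mark per cell cannot be told apart. All 8 acinar marker genes, Cpa1, Cela1 and Prss2 among them, had a K4me3 peak in all 6 mice. Of 7 matched marker genes of the intestine, which also uses Reg genes, 5 (Fabp2 and Defa24 among them) had K4me3 in 0 mice and 2, Lgr5 and Atoh1, in all 6.

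The lists held 17400 to 25886 K4me3 peaks and 21420 to 31274 K27me3 peaks per mouse, and the read depth behind them is unknown. WT replicate 2 stood apart. It had the fewest peaks of both marks, against at least 24209 K4me3 and 28803 K27me3 peaks in each of the other 5 mice, and its K27me3 peaks lay near a TSS of 24.5% of genes, against 10.5% to 15.5% elsewhere. The main differences between EZ and WT are given with and without this mouse. The K27me3 list of EZ replicate 2 also differed in make-up, with 17 peaks on the X chromosome against 5637 to 7367 in the other 5 mice, and 28783 on the autosomes against 15782 to 23954.

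The cluster runs from Reg3b to Reg3g over 98.2 kb (chr6:78370657-78468872, mm10) with 0 other genes of the set inside. From left to right lie Reg3b (chr6:78370657-78373466, plus strand), which encodes pancreatitis-associated protein, Reg3d (chr6:78375874-78378865, minus strand), related to islet neogenesis-associated protein, Reg3a (chr6:78380709-78383827, plus strand), Reg2 (chr6:78395623-78408106, plus strand), Reg1 (chr6:78422711-78428667, plus strand), which encodes lithostathine of pancreatic juice, and Reg3g (chr6:78466269-78468872, minus strand), which encodes an antibacterial lectin. The nearest protein-coding neighbours are remote, Ctnna2 at 391 kb on the left and Gm20594 at 1349 kb on the right. Reg4 (chr3:98222156-98236748, plus strand), a member known from the gut, has Adam30 at 58.0 kb on its left.

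RefSeq promoters, 250 bases before to 50 bases after each start site (GRCm38.p6), were matched for 7 of 7 members. The 250 bases before the start are printed for Reg1 and Reg3d, which carried K4me3 over the start in every mouse, for Reg2, where K4me3 differed between mice, for Reg3g, where the peak lay just before the start, and for Reg4, which had no peak. All are written 5′ to 3′ on the strand of the gene, and capitals mark matches on either strand to TATAAA (the TATA box), CACCTG (an E-box), TTTCCC (a core bound by RBPJ proteins) and TTCNNNGAA (the letters bound by STAT proteins), which may overlap.
Reg1, chr6:78425733-78425982, plus strand: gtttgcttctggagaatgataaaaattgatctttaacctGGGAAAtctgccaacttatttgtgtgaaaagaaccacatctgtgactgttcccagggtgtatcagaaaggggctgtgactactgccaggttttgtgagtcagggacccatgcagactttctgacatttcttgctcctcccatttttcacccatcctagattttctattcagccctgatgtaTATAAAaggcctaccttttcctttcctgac
Reg3d, chr6:78378866-78379115, minus strand: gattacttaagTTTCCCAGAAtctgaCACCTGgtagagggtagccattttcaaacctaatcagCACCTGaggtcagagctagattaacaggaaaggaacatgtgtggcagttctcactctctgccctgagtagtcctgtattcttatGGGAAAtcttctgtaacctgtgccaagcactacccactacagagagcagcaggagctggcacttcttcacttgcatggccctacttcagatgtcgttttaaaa
Reg2, chr6:78404905-78405154, plus strand: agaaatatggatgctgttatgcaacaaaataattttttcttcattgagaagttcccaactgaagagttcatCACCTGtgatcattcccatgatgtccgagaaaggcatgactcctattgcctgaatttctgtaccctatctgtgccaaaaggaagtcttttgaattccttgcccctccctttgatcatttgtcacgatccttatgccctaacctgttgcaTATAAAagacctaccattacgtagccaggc
Reg3g, chr6:78468875-78469124, minus strand: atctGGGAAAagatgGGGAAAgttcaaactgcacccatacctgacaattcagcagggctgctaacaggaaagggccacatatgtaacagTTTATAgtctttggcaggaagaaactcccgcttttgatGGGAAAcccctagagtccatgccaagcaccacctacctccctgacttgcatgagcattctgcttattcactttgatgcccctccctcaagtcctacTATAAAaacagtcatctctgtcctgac
Reg4, chr3:98221906-98222155, plus strand: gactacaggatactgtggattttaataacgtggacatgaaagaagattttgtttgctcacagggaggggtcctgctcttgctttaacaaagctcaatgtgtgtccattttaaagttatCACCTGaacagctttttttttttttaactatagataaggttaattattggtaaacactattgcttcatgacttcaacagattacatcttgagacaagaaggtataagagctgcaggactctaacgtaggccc

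The promoters of the family were poor in CpG. The CpG observed/expected ratio over the 300 bases was 0 for Reg1 and Reg3a, 0.0601 for Reg3g, 0.0632 for Reg3d, 0.21 for Reg3b, 0.246 for Reg2 and 0.262 for Reg4. The median over 17266 RefSeq promoters was 0.579, and over the 10007 promoters of genes with K4me3 in all 6 mice it was 0.773. TATAAA began at position -30 of Reg1 and Reg2, at -29 of Reg3b and at -27 of Reg3g (-1 is the base before the start), and 13.0% of all promoters held these letters on either strand. CACCTG was found in Reg2, Reg3a, Reg3b, Reg3d and Reg4 and in 19.3% of all promoters. TTTCCC was found in Reg1, Reg3b, Reg3d and Reg3g and in 25.3% of all promoters. TTCNNNGAA was found in Reg3b at -129 and in Reg3d at -238, and in 7.88% of all promoters. Reg1 had a second TATAAA on the other strand at position 36, after the printed stretch. These are matches of letters and not evidence of binding. Aligned in pairs, the promoters were 58.3% (Reg2 with Reg3g) to 73.7% (Reg3a with Reg3g) identical. Within 1 kb of the start sites, 5.53% of the 50-base words of Reg3a also occurred at Reg3d. The windows of these neighbours overlap on the chromosome, so this is the same sequence counted at both and not a repeat. The other members shared no such word with the family.

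In pancreatic tissue K4me3 was present at all 6 members of the cluster in at least some mice, and K27me3 at none of them. Within 3 kb of a TSS, Reg1, Reg3d and Reg3a had a K4me3 peak in 6 of 6 mice, as did 56.6% of all genes tested. Reg3b and Reg3g had one in 5 mice, missing from WT replicate 2, and Reg2 in 3. A call in 1 to 5 mice was seen for 8.67% of all genes, against 3 of the 7 members. Reg4 had a K4me3 peak in 0 mice, as did 34.8% of all genes. The 3 kb windows of Reg3b, Reg3d and Reg3a overlap, so 1 peak can call several of them, and a peak over the RefSeq start itself is the stricter measure. By that measure Reg1 and Reg3d were marked in 6 mice, Reg2 and Reg3a in 3, Reg3b in 2, Reg3g in 1 and Reg4 in 0, while of all genes with a matched promoter 50% had a peak over the start in all 6 mice and 41.2% in none.

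**Figure D1:**
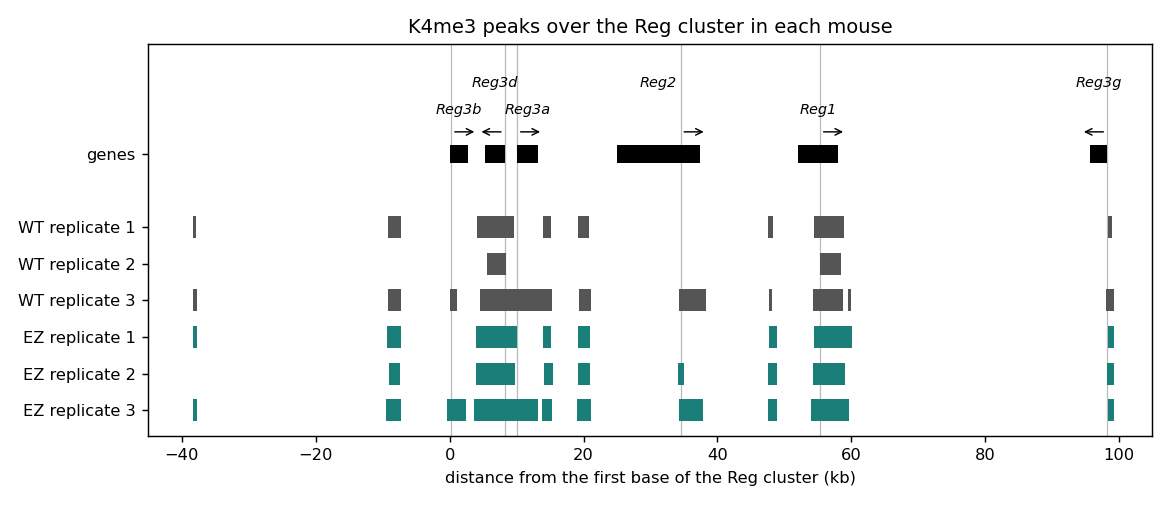
K4me3 peaks of each mouse (one row per mouse, coloured by genotype) against the distance from the first base of the cluster in kb. Black bars are genes, arrows show the direction of transcription and grey lines the RefSeq start sites. The peaks over Reg3d and Reg1 recur in 6 of 6 rows and are the only peaks of WT replicate 2, whereas the one over the Reg2 start is in 3 rows.

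Of the members, Reg1 and Reg3d had a peak over the start in every mouse. The peak over the Reg1 start was 4454, 3121 and 4616 bp wide in WT replicates 1, 2 and 3, and 5637, 4749 and 5797 bp in EZ mice. All 3 EZ peaks were wider than all 3 WT peaks, 5394 ± 565 against 4064 ± 820 bp (mean ± SD, n = 3). The difference of 1331 bp had an exact permutation p of 0.1, the smallest that 3 mice against 3 allow. Of 8629 genes with a K4me3 peak over the RefSeq start in all 6 mice, 11.3% had groups apart in width. EZ was the wider group at 9.32% of these genes and the narrower at 1.98%. Without WT replicate 2 the difference at Reg1 was 859 bp (exact permutation p = 0.2). Of the peaks over start sites in the same library, 3.83% to 18.4% were at least as wide as the Reg1 peak.

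The peak over the Reg3d start measured 5633, 2773 and 10808 bp in WT mice and 6222, 5836 and 9629 bp in EZ mice. The WT mice held both the narrowest and the widest of them, and the groups overlapped (difference 824 bp, exact permutation p = 0.8). Without WT replicate 2 the difference was -991.5 bp and without EZ replicate 3 it was -376 bp. In WT replicate 3 the 10808-bp peak ran over the starts of Reg3d and Reg3a together, and 0.380% of the peaks over start sites in that library were as wide.

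Promoters with a CpG ratio of 0, the value of Reg1 and the lowest possible, were rare among genes with K4me3 over the start. Of the 8629 genes with a K4me3 peak over the start in all 6 mice, 3 (Reg1 included) had a CpG ratio as low as that of Reg1. Of the 1126 among the 8629 whose median peak width was at least 4 kb, 2 did. Thus 2 of the 3 were wide, and the rarity is of the CpG ratio and not of the width. The median ratio of those 1126 promoters was 0.836. Of the 13 genes for acinar secretory proteins with a matched promoter, 11 had a peak over the start in every mouse, with median widths of 4846.5 to 21120.5 bp. Their CpG ratios ran from 0.0457 to 0.637 with a median of 0.202, and 10 of the 11 lay below the median of all promoters, the exception being Pnlip, a lipase gene, at 0.637. The median widths of Reg1 and Reg3d, 4682.5 and 6029 bp, lay below and within that range of widths.

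**Figure D2:**
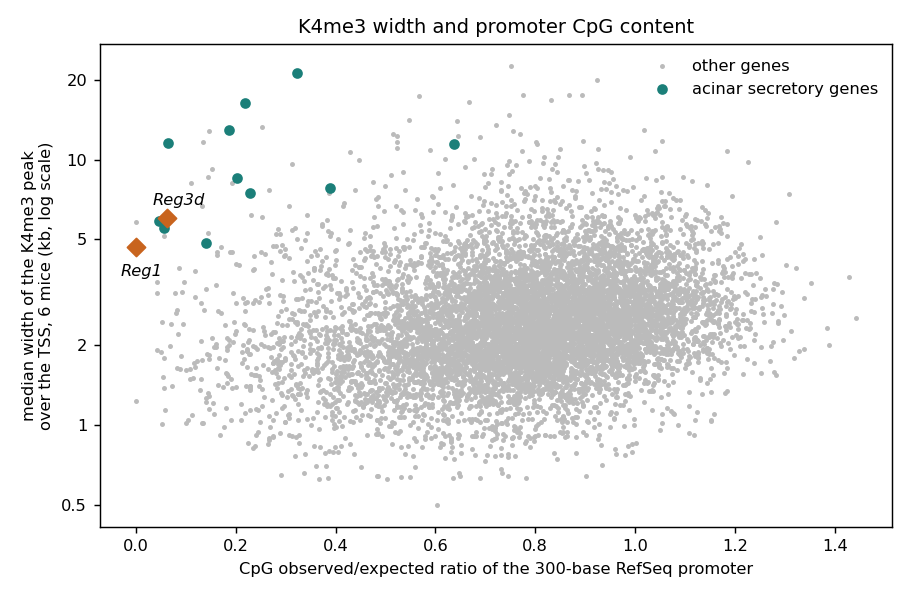
Median width of the K4me3 peak over the RefSeq start in 6 mice (kb, log scale) against the CpG observed/expected ratio of the promoter, for the 8629 genes with such a peak in every mouse. Orange diamonds are Reg1 and Reg3d, green points acinar secretory genes and grey points the other genes; Reg1, at a ratio of 0, lies at the left edge with a width of 4682.5 bp.

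Reg2, which encodes a secreted protein of acinar and islet tissue, was called in the fewest mice of the clustered members. K4me3 covered 3230 bp within 3 kb of its TSSs in WT replicate 3 and 0 bp in WT replicates 1 and 2. It covered 0, 776 and 3177 bp in EZ replicates 1, 2 and 3. The peak was thus absent in 3 mice and more than 2 kb wide in 2 of the 3 that had it, and its presence did not separate the genotypes. Where it was absent the nearest K4me3 peak lay 13.1 to 20.8 kb from the start. Of the whole table, 4 genes had the same presence and absence in 6 of 6 mice. The closest in covered length were 3110039I08Rik, Insyn1 and Gal3st4, with mean absolute differences of 698, 876 and 882.5 bp.

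Reg3b and Reg3a lie on either side of Reg3d, and in 5 of 6 mice, all but WT replicate 2, the Reg3d peak reached into both of their windows. At Reg3b K4me3 covered 843, 0 and 1514 bp in WT replicates 1, 2 and 3, and 978, 947 and 4119 bp in EZ mice. The start of Reg3b itself was under a peak of its own, 1095 and 2854 bp wide, in WT replicate 3 and EZ replicate 3, the mice that had the widest Reg3d peak of their genotype. At Reg3a, an antibacterial lectin gene of the gut and pancreas, K4me3 covered 2613, 1339 and 6001 bp in WT mice and 3067, 2712 and 6001 bp in EZ mice. The same mice again reached 6001 bp, the whole window. In the 3 mice without a peak over the Reg3a start, the nearest peak ended 0.289 to 1.66 kb away.

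Reg3g carried a narrow mark just before its start. K4me3 covered 641, 0 and 1185 bp in WT replicates 1, 2 and 3 and 890, 946 and 899 bp in EZ mice. The 3 EZ mice lay close together, inside the range of the WT mice. In the 4 mice with a peak that did not reach the start, it lay 43 to 179 bp away. The peak over the start in WT replicate 3 was 1185 bp wide, and 91.6% of the peaks over start sites in that library were at least as wide. In WT replicate 2 the nearest K4me3 peak was 39.8 kb away. Reg3b and Reg3g had the same calls in 6 of 6 mice as 649 other genes each, so this pattern, a call in every mouse but WT replicate 2, the library with the fewest K4me3 peaks, is not particular to them. The closest to Reg3g in covered length were Myh14, 2410124H12Rik and Plppr2, with mean absolute differences of 64.5, 77.2 and 80.5 bp, and the closest to Reg3b were AI427809, Csrnp3 and Lrrc74b, with 569, 590.2 and 598 bp.

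**Figure D3:**
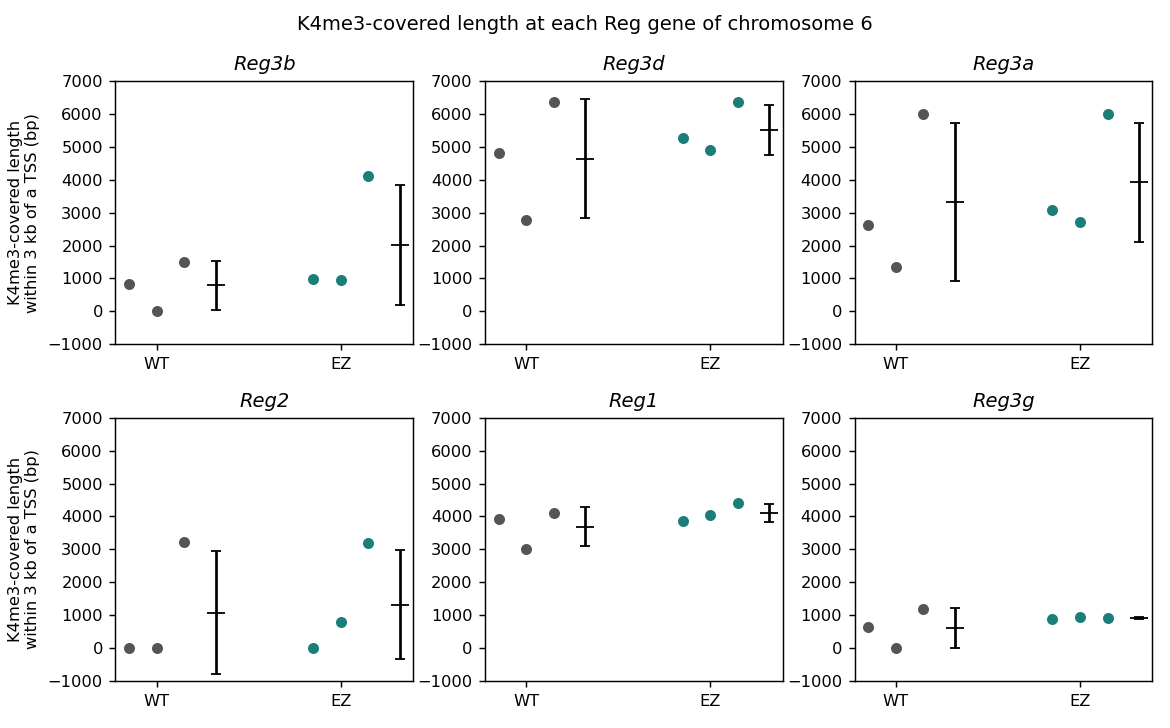
K4me3-covered length within 3 kb of a TSS (bp) for the 6 Reg genes of chromosome 6, one panel per gene. Points are mice in the order of replicates 1 to 3, and bars are the mean and SD (n = 3 per genotype). WT and EZ points overlap in each panel, and WT replicate 2 is the lowest point at Reg1, Reg3a, Reg3b, Reg3d and Reg3g.

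K4me3 peaks also recurred at places that hold no annotated start. Peaks within 50 kb of the cluster were reduced to 10 stretches covered in at least 2 of 6 mice, of which 6 held no annotated TSS. One lay 37.9 kb upstream of the Reg3b start (chr6:78332333-78332960, 4 mice) and another 7.46 kb upstream of it (chr6:78361271-78363424, 5 mice). A pair lay downstream of the Reg3a start, at 3.73 kb (chr6:78384435-78386009, 5 mice) and at 9.07 kb (chr6:78389779-78391742, 5 mice). Upstream of the Reg1 start, at 6.43 kb (chr6:78418256-78419556), K4me3 was found in 5 mice. The last of the 6 is the Reg3g promoter peak itself, whose shared stretch ends 43 bp before the start (chr6:78468917-78469951, 5 mice). All 5 stretches found in 5 mice were missing from WT replicate 2. WT mice had peaks at 8, 2 and 10 of the 10 stretches and EZ mice at 8, 8 and 10, so the groups overlapped.

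Across the cluster with 3 kb on each side, the share under K4me3 peaks asked whether loss of the EZH2 SET domain moved the family as a whole. The share was 13.6%, 5.66% and 23.5% in WT replicates 1, 2 and 3, a mean of 14.3% ± 8.96 (SD, n = 3). It was 16.2%, 16.1% and 26.7% in EZ mice, a mean of 19.7% ± 6.11 (SD, n = 3). EZ mice lay within or just above the range of the WT mice. EZ minus WT was 5.39 percentage points (two-sided exact permutation p = 0.4), where 3 mice against 3 cannot go below 0.1. Without WT replicate 2 it was 1.08 points (exact permutation p = 0.8), and without WT replicate 3, the WT mouse with the highest share, it was 10.02 points (exact permutation p = 0.1). Per mouse, 4.67 ± 1.53 members were called in WT and 5.67 ± 0.577 in EZ (mean ± SD, n = 3), and 5.5 in WT without replicate 2. Of all genes, 59.5% to 61.9% were called in WT and 61.4% to 62.0% in EZ mice. By the stricter measure, a peak over the RefSeq start, the means were 3.33 in WT and 3.67 in EZ, and 53.4% to 55.3% of all matched promoters had such a peak per mouse.

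**Figure D4:**
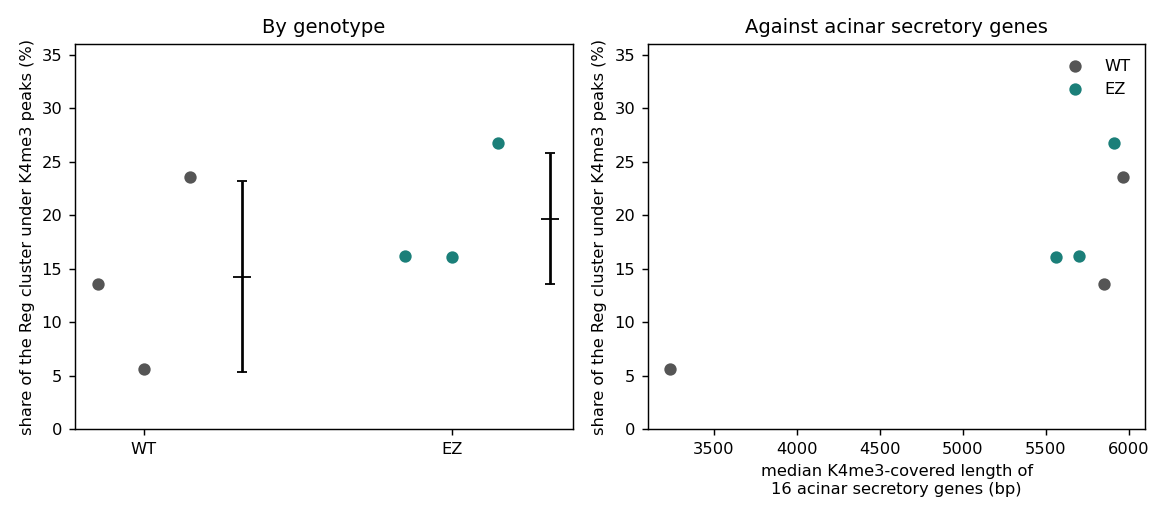
Left, share of the Reg cluster under K4me3 peaks (%) by genotype, with points for mice in the order of replicates 1 to 3 and bars for the mean and SD (n = 3). Right, the same share against the median K4me3-covered length of 16 acinar secretory genes (bp) in each mouse. WT replicate 2 (5.66%, 3240.5 bp) is lowest on both axes.

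The acinar secretory genes were also lowest in WT replicate 2. Their median K4me3-covered length was 3240.5 bp in that mouse and 5563.5 to 5964 bp in the other 5. The mice with the highest cluster share, EZ replicate 3 and WT replicate 3, also had the longest acinar medians (5912 and 5964 bp). WT replicate 1 came next in acinar median (5853.5 bp) but had the lowest cluster share of these 5 mice (13.6%). The mean of the acinar medians was 5726 bp in EZ and 5019 bp in WT mice (difference 707 bp, exact permutation p = 0.9, n = 3 each). Without WT replicate 2 the difference was -183 bp (exact permutation p = 0.3). The median over all genes with K4me3 in 6 mice ranged from 2226 bp, in WT replicate 2, to 2535 bp, in WT replicate 3. The part of library quality in the differences at the Reg cluster was not tested.

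Member by member, 0 of 7 members had WT and EZ groups apart in K4me3-covered length within 3 kb, against 7.39% of all genes. The mean was higher in EZ at each of the 6 clustered members, of which Reg3b, Reg3d and Reg3a share peaks. Covered length leaned the same way over the genome: all EZ mice lay above all WT mice at 6.01% of genes and below at 1.38%. The difference was 414 bp for Reg1 (4104 against 3690 bp, exact permutation p = 0.5) and 863 bp for Reg3d (5508 against 4645 bp, exact permutation p = 0.5). It was 1229 bp for Reg3b, 609 bp for Reg3a, 303 bp for Reg3g and 241 bp for Reg2, with exact permutation p of 0.4 to 1. These directions rested on WT replicate 2 at 4 members: without it the difference was -73 bp for Reg3d, -380 bp for Reg3a, -1.33 bp for Reg3g and -297 bp for Reg2, while Reg1 (80.3 bp) and Reg3b (836 bp) stayed higher in EZ. Without WT replicate 1 it was also -297 bp for Reg2, and without EZ replicate 3 it was -689 bp for Reg2, -428 bp for Reg3a and 177 bp for Reg3b. With all mice and a 1 kb minimum peak width it was -395 bp for Reg3g and -17.7 bp for Reg2. With windows of 5 kb the groups were apart at Reg1, with 5088, 3121 and 5618 bp in WT and 6805, 6050 and 7212 bp in EZ mice, as they were for 7.88% of all genes. EZ was the higher group at 6.49% of all genes and the lower at 1.39%. Without WT replicate 3 the groups were apart at Reg3a, Reg3b, Reg3d and Reg3g, and at 17.6% of all genes. In that case EZ was higher at 15.4% of all genes and lower at 2.21%. By presence alone, 0 of 7 members had a K4me3 peak in every mouse of one group and none of the other, as 0.112% of all genes did.

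No K27me3 peak was called near the starts of the family in either genotype. No K27me3 peak lay within 3 kb of a TSS of any member in any of 6 mice, which was also true of 66.9% of all genes, while 29.5% had one in 1 to 5 mice and 3.56% in all 6. In each mouse 0 bp of the cluster with its 3 kb margins was covered. EZ and WT therefore held no difference at the members, where 0.804% of all genes had groups apart. The depth is unknown, and a K27me3 level under the peak caller's threshold, or a stretch under its minimum peak width, would not be seen. The study itself called K27me3 genes over a longer window that starts 100 kb before a TSS and ends 3 kb after it. By that window Reg3g was called in 6 mice, Reg2, Reg3a and Reg3b in 5, Reg4 in 1 (EZ replicate 2) and Reg1 and Reg3d in 0, where 64.4% of all genes were called in at least 1 mouse. The members called were 4, 1 and 4 in WT replicates 1, 2 and 3 and 4, 5 and 4 in EZ mice, through peaks that lie outside the cluster. Of all genes, 27.8%, 54.5% and 32.3% were called in these WT mice and 33.7%, 32.3% and 35.6% in the EZ mice, so WT replicate 2 had the fewest members and the most genes called.

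K27me3 peaks were found on both sides of the cluster. In the 5 mice other than WT replicate 2, the nearest peak ended 58.5 to 71.9 kb to the left of Reg3b and began 67.7 to 86.3 kb to the right of Reg3g, leaving a stretch without K27me3 of 227 to 248 kb. Of all gaps between K27me3 peaks on the autosomes of the same mice, 7.93% to 9.86% were at least as long. A gap that spans the cluster must exceed its 98.2 kb, so this share by count does not show that the stretch is unusual. In WT replicate 2 the nearest peak on the left was 5011 kb away. In the 200 kb on each side K27me3 covered 23.3% to 41.0% of the sequence in the 5 mice and 1.25% in WT replicate 2, while it covered 6.51% to 10.4% of chromosome 6 in all 6 mice. Ctnna2, the neighbour on the left, which encodes a neuronal catenin, had a K27me3 peak within 3 kb of a TSS in 5 mice and K4me3 in 0.

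**Figure D5:**
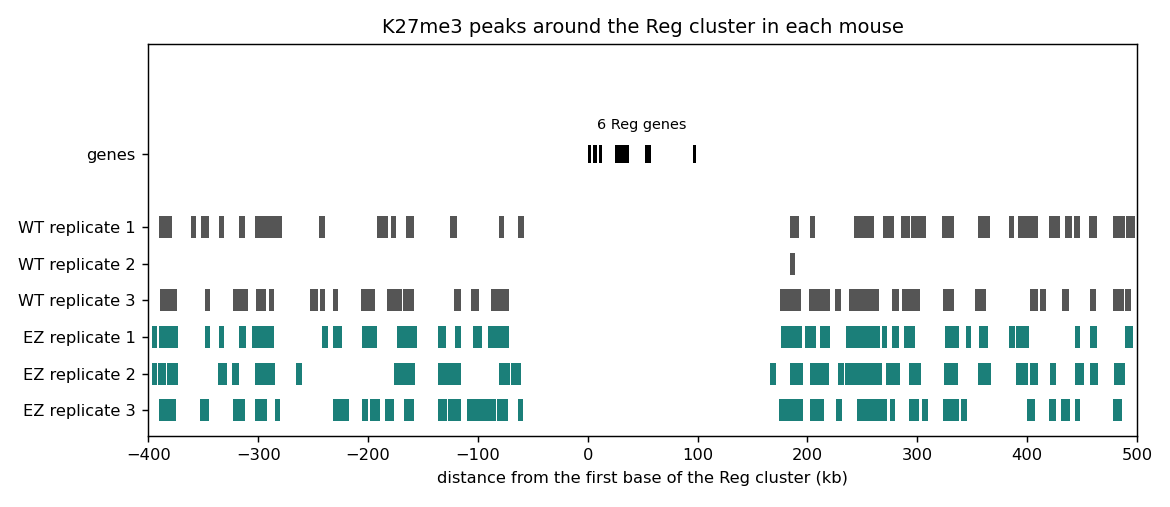
K27me3 peaks of each mouse against the distance from the first base of the Reg cluster in kb, one row per mouse and coloured by genotype; black bars are the 6 genes. Each row is empty over the genes and filled on both sides, except WT replicate 2, which has a single peak in the range shown.

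The K27me3 share of these flanks, a measure chosen after the data were seen, was 23.3%, 1.25% and 37.5% in WT replicates 1, 2 and 3 (20.7% ± 18.3, mean ± SD, n = 3). In EZ mice it was 39.3%, 38.1% and 41.0% (39.5% ± 1.45, n = 3). Each EZ value lay above each WT value, EZ replicate 2 and WT replicate 3 by less than 1 point, and the same flanks of 6.39% of all genes had groups apart. EZ minus WT was 18.8 percentage points (exact permutation p = 0.1). Without WT replicate 2 it was 9.05 points (exact permutation p = 0.1). Divided by the K27me3 share of chromosome 6 in the same mouse, the flanks gave ratios of 3.19, 0.192 and 4.80 in WT and 4.91, 3.66 and 5.17 in EZ mice, which overlapped (exact permutation p = 0.2).

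Reg4 carried neither mark. The nearest K4me3 peak lay 23.6 to 58.2 kb from its TSS in the 6 mice, and the nearest K27me3 peak 53.4 to 441 kb. No peak of either mark lay in the gene body in any mouse. Its neighbour Adam30, a protease gene, had K4me3 in 0 mice.

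Genes that act around the Reg family were examined for the same marks, where 56.6% of all genes had K4me3 in 6 mice and 34.8% in none. Of 15 genes of IL-6, IL-22 and STAT3 signalling, 13 had K4me3 in 6 mice, among them Il6ra, Il6st and Il22ra1, which encode receptor chains, Stat3, and Extl3, a proposed receptor of Reg proteins. The ligand genes Il6 and Il22 had K4me3 in 0 mice. K27me3 was in 0 mice at 11 of the 15 genes. Il22 had it in WT replicate 2 and EZ replicates 1 and 2, and Osmr, Lifr and Il11ra1 in WT replicate 2 alone, the mouse with K27me3 near the most genes. Of 14 genes of pancreatic injury and the acute phase response, 8 had K4me3 in all 6 mice, including Nupr1, a stress-induced chromatin protein, Clu, which encodes clusterin, Spink1, a trypsin inhibitor, and Saa3. Lcn2, Saa1, Saa2 and Timp1 had it in 0 mice and Cxcl1 and Spp1 in 5, 2 WT and 3 EZ mice. K27me3 was in 0 mice at 11 of these 14 genes. Onecut2 had both marks in 6 mice, Atf3 had K27me3 in WT replicate 2 alone, and Timp1, which lies on the X chromosome, had it in WT replicate 2 and EZ replicates 1 and 3, EZ replicate 2 being the list with few peaks on that chromosome. All 16 acinar secretory genes, Cpa1, Cela1, Prss2 and Amy2b first among them, had K4me3 in 6 mice, and 1 of them, Ctrb1, had K27me3, in WT replicate 2. Of all genes, 66.9% had K27me3 in none. Reg1, Reg3d and Reg3a were likewise called in every mouse, while Reg2, Reg3b and Reg3g were not. No gene of these lists was marked in every mouse of one genotype and none of the other. Over all genes this pattern held at 0.112% for K4me3 and 0.183% for K27me3.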

How the data were processed

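Chromatin of whole pancreata was immunoprecipitated for K27me3 or K4me3 in 6 mice, 3 WT and 3 EZ. Mice of further genotypes are not reported here. The authors checked reads with FastQC, aligned them to mm10 with Bowtie2 (versions not given in the sources used here) and ran HOMER FindPeaks (histone mode) on every mouse separately, with its input as background. The deposited lists give peak positions only, 1 in every score field and + in every strand field, so depth, peak height and fold enrichment are unknown. Merging in the peak caller can join neighbouring promoters. The 6 input libraries were not used here.

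Peaks were compared with GENCODE M21 genes that have an Entrez identifier (22379, mitochondrial genes left out). A peak within 3 kb of any TSS made a gene called, and the covered length was the part of these windows under merged peaks. The cluster share used the gene span with 3 kb on each side. Tests of single values were exact two-sided permutations over mice of EZ against WT, unadjusted. The members and gene lists were chosen with earlier results of these data known. The genes named are the members, neighbours, the first 4 of the injury, signalling and acinar secretory lists and, for members called in 3 to 5 mice, genes with equal calls. Others named were chosen after their values were seen: Pnlip, Ctrb1, Stat3, Extl3, Il22, Osmr, Lifr, Il11ra1, Timp1, Atf3, Onecut2, Saa1, Saa2, Saa3, Cxcl1, Spp1, Fabp2, Defa24, Lgr5 and Atoh1. The titles call the replicates biological. Same-numbered mice are different animals. Code was tested on simulated peaks. Python 3.11.15, numpy 2.4.6, Biopython 1.88 and matplotlib 3.10.9 were used.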

Additional observations from a re-analysis of the deposited data

How the results depend on the processing

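The cluster share stayed higher in EZ than in WT under other spans (no extension, 10 kb), a 1 kb minimum width, equal numbers of the widest autosomal peaks, merging within 3 kb and medians. No p could pass 0.05 in this design, so only directions and sizes are compared. With a mouse left out the difference ranged from 1.08 (without WT replicate 2) to 10.02 points (without WT replicate 3). Deviations of same-numbered mice from the group means correlated at r = 0.212, 0.222 and 0.0414 across genes, and the 3 EZ mice each correlated best with their own number. Deviations of 3 mice from their own mean cancel out, so these correlations are not independent and do not establish pairing. With the replicate number as a block, the exact permutation p of the cluster share was 0.25, the smallest that 3 pairs allow. Under a 1 kb minimum width the difference was -395 bp at Reg3g and -17.7 bp at Reg2, and with equal numbers of the widest peaks it was -79.7 and -17.7 bp, since narrow peaks drop out. With a mouse left out it ranged from -689 to 1318 bp at Reg2, -428 to 1951 bp at Reg3a, 177 to 1763 bp at Reg3b, -73 to 1717 bp at Reg3d and -1.33 to 591 bp at Reg3g. The peak width difference, added after seeing the data, ranged from 859 to 1653 bp at Reg1 and from -991.5 to 3026 bp at Reg3d. The acinar difference, also added, ranged from -183 to 1179 bp, and the flank difference was 19.4 points without EZ replicate 2. Members with a peak over the RefSeq start, also added, averaged 3.33 in WT and 3.67 in EZ. In the K27me3 window from 100 kb upstream to 3 kb downstream, the study's K27me3 criterion, an average of 3 members was called in WT (1 in replicate 2, 4 in the others) and 4.33 in EZ, since that window reaches the flanking peaks. Members with groups apart numbered 0 to 4 with a mouse left out and 1 with 5 kb windows. Where no construction is named, the cause was not tested. The planned K27me3 minimum of 2 kb removed no peak. Depth is unknown, so peak presence and width limit every value.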
